A study of Mus musculus with 4 samples.

Results

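The 50 genes described here act in G2 and mitosis, the part of the cell cycle in which a cell that has copied its DNA condenses its chromosomes, pulls the copies apart and divides. They were chosen by name from a fixed list of symbols, with earlier results of these data known. All 50 were found among the 55401 gene rows of the count table, 1 row each, and all 50 passed the filter on low counts that left 14180 genes for testing. The genes were grouped by role as cyclins and kinases (11 genes, with their phosphatases and a transcription factor), kinesins (9), centromere and checkpoint (14), cytokinesis (4), and spindle and chromosome structure (12).

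Entry into mitosis is driven by CDK1, a kinase that is active only when bound to cyclin A or cyclin B. Chromosomes are then captured by spindle microtubules at kinetochores, protein assemblies built on the centromere, and a checkpoint delays separation until every kinetochore is attached. The anaphase-promoting complex ends this delay by marking cyclin B and securin for destruction, and the cell is cleaved at the midzone of the spindle. Most of the genes involved are transcribed late in the cell cycle, and B cells stimulated through CD40 and the antigen receptor are known to enter this cycle and divide.

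Poly(A) RNA was sequenced from activated splenic B cells of C57BL/6 mice, in 2 libraries from wild-type mice and 2 labelled as an Adar1 conditional knockout (cKO) restricted to B cells. Both groups were enriched with anti-CD43 beads, which retain most other leukocytes, and were kept in culture with anti-IgM (10 µg/ml) and anti-CD40 (1 µg/ml) for 36 h. The sources used here do not give the Cre driver, the deleted part of the gene, the control alleles or the age of the mice. Since they also leave unsaid whether each library had its own mouse or culture, the p-values measure only the spread between these libraries, which may be technical. Total counts per library lay between 17327480 and 19669651, and 3 counts, the limit set by a count of 0, were worth 0.153 to 0.173 CPM (counts scaled to the size of the library). Adar itself, which encodes the enzyme that converts adenosine to inosine in double-stranded RNA, was measured at 137 and 149.97 CPM in wild type and reached 218 and 233 CPM in the other libraries, a change of 0.65 ± 0.063 against the direction of the label. Counts over the whole gene do not show whether a part of it is deleted, so the libraries are called cKO-labelled. The B cell markers Ms4a1, Cd79a, Cd79b, Cd22, Pax5, Ebf1 and Blk were detected in all libraries.

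The question put to these genes is whether the mitotic programme of activated B cells differs where Adar1 is labelled as deleted. In these libraries it did, upward and by a modest amount: 46 of the 50 genes were higher in the cKO-labelled libraries, 1 was lower, and 3 were not called. The genes share libraries and are not independent, so these counts are a description and no test was made over the list. The median change was 0.47 on the log2 scale, a 1.38-fold rise, beside a median of -0.0058 over all genes tested. Each change is a log2 difference (cKO-labelled minus wild type) given with its SE from 2 libraries per genotype, and genes were called at a Benjamini-Hochberg adjusted p under 0.05 in edgeR's quasi-likelihood test. Over all genes tested, 12.2% were called higher and 9.54% lower. For 47 of the 50 genes both cKO-labelled libraries stood above both wild-type libraries, against 29.2% of all genes tested. For 2 genes, Cdc25b and Anln, both stood below, against 28.7% of all genes, and for Bub3 the genotypes overlapped. The SE was derived from the change and its F statistic, and it borrows the spread of other genes. DESeq2 called 45 of the 50 genes higher, against 8.07% of the genes to which it gave an adjusted p. In bulk RNA a larger share of cells in G2 or mitosis and more RNA per such cell cannot be told apart.

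Most of the called rises were modest. Of the 46 higher genes, 43 had a change between 0.25 and 0.65, and only Nusap1 and Hmmr exceeded this band while Ncapd2 fell short of it. The share of all genes in this band was not counted. The call itself limits the lower side, since the smallest change called higher over all genes tested was 0.16. A rise of at least 1.5-fold was reached by 7 of the 50 genes (9.25% of all genes tested). Together the 50 genes held 0.450% of the counts of wild-type library 1 (Wilson 95% interval 0.447 to 0.453) and 0.460% of library 2 (0.457 to 0.463). They held 0.626% (0.622 to 0.629) of cKO-labelled library 1 and 0.591% (0.587 to 0.595) of library 2. These intervals cover counting error only. The cKO-labelled libraries thus differed from each other by more than counting error, and 42 of the 50 genes were higher in library 1 than in library 2, with a median log2 difference of 0.11. The wild-type libraries differed by a median of -0.016, with 21 genes higher in library 1 and 29 higher in library 2. Every pairing of a cKO-labelled with a wild-type library gave a larger median, from 0.39 to 0.54.

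**Figure D1:**
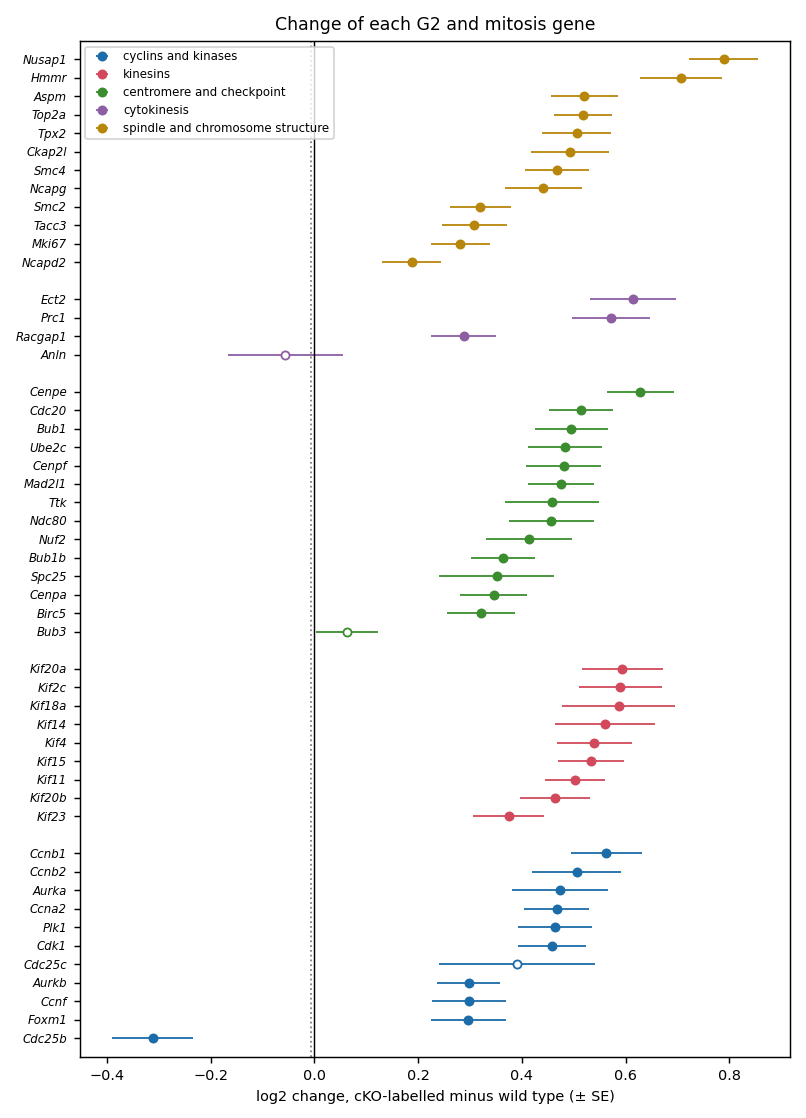
Log2 change of each of the 50 genes, with wild type subtracted from cKO-labelled, SE bars (n = 2 libraries per genotype) and colours by role. Filled points passed the test at an adjusted p under 0.05, open points did not, and the dotted line is the median of all genes tested (-0.0058). Most points lie between 0.25 and 0.65, with Cdc25b below 0.

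**Figure D2:**
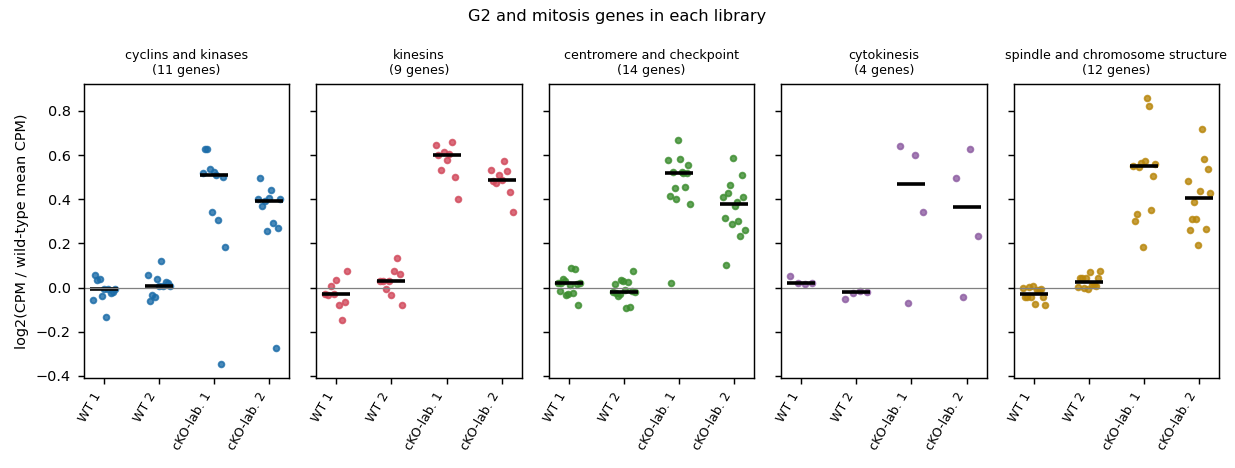
CPM of each gene in each library relative to its wild-type mean, on a log2 scale, with 1 panel per role. Points are genes and black bars are medians. In each panel the cKO-labelled medians lie above the wild-type medians, and cKO-labelled library 1 lies above library 2.

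Because the genes moved together, their promoters are shown for those on which the description turns: the CDK1 and cyclin B genes, the genes of spindle and chromosome structure with the largest rises (Hmmr, Nusap1) and the highest level (Top2a), and the exceptions Cdc25b and Anln. The windows run from 250 bases before to 50 bases after the RefSeq start, 5′ to 3′ on the strand of the gene, on GRCm38.p6. Capitals mark matches on either strand to CCAAT, the core of the box bound by NF-Y, and to TTTGAA or TTTAAA, the core of the cell cycle genes homology region (CHR) to which the MuvB complex binds. Windows of Bub3, another gene that was not called, are not printed and held both kinds of match.
Ccnb1 (chr13:100786437-100786736, minus strand): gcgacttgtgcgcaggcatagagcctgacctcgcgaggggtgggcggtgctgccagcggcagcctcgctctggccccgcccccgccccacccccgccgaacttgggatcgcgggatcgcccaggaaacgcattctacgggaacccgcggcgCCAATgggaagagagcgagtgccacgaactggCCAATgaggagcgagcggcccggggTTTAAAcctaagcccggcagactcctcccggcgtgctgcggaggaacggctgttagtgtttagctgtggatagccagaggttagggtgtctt
Ccnb2 (chr9:70421505-70421804, minus strand): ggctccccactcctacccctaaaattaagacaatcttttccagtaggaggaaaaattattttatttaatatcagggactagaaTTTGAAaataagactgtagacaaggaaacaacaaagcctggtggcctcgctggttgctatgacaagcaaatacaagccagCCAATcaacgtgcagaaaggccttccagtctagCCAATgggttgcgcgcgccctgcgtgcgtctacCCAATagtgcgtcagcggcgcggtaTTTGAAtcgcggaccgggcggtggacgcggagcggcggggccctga
Cdk1 (chr10:69352863-69353162, minus strand): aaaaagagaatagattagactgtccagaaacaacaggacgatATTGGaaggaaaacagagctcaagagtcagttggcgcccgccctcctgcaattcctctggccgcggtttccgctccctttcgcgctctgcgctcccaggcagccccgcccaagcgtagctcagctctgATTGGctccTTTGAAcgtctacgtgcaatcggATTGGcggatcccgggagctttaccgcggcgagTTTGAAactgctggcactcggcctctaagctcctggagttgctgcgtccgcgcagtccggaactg
Hmmr (chr11:40733388-40733687, minus strand): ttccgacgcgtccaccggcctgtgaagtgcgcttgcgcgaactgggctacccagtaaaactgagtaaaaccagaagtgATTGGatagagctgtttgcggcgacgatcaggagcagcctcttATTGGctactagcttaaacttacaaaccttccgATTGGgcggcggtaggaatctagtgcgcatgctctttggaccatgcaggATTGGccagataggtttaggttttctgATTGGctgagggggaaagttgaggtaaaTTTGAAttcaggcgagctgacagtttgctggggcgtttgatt
Top2a (chr11:99024140-99024439, minus strand): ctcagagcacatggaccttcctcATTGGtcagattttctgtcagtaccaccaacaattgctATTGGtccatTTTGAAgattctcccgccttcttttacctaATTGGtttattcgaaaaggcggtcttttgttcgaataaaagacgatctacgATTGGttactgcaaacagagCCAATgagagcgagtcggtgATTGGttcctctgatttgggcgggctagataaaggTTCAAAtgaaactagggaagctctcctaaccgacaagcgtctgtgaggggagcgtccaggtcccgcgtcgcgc
Nusap1 (chr2:119618048-119618347, plus strand): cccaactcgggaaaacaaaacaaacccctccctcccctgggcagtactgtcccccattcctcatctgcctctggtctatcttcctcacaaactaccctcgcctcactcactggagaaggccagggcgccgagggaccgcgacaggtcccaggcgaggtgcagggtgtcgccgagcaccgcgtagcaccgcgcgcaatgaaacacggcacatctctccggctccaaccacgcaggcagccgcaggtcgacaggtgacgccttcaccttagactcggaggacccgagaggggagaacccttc
Cdc25b (chr2:131186698-131186997, plus strand): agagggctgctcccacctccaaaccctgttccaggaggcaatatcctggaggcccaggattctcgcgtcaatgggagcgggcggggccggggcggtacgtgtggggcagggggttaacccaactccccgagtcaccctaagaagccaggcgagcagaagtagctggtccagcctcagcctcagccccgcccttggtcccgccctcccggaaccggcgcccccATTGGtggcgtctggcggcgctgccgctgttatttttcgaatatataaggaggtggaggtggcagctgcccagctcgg
Anln (chr9:22389157-22389456, minus strand): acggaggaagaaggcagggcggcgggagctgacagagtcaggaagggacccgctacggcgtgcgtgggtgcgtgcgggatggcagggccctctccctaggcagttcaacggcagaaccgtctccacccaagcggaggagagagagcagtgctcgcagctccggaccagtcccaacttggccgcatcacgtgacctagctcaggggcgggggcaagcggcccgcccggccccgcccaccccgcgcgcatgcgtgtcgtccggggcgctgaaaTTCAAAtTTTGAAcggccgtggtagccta

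The CCAAT matches of Ccnb2 lay 87, 54 and 21 bases before the start, each 33 bases from the next, and a CHR match began 5 bases after the start. In Ccnb1 the CCAAT matches lay 32 bases apart, and a TTTAAA began 42 bases before the start. Cdk1 had CHR matches 71 and 15 bases before its start. RefSeq windows were found for 43 of the 50 genes, 46 windows in all. Not every window is at the outer end of its gene in the count table. The window of Kif2c (chr4:117178723-117179022, minus strand) lies inside the gene (117159639 to 117182639). That of Kif14 (chr1:136467598-136467897, plus strand) does as well (136466343 to 136531511). A CHR match stood in 39 of the 46 windows (84.8%), where 27.6% of the 32851 windows of the RefSeq table held one. Within 50 bases of the start it stood in 73.9% of the windows, against 8.28% of all. A CCAAT match stood in 76.1% of the windows (37.4% of all), at least 2 in 50% (11.7% of all), and both kinds in 71.7% (10.7% of all). The E2F letters TTTCCCGC or TTTGGCGC, searched on both strands, were found in 8.7% of the windows and 1.56% of all. CHR and CCAAT matches did not overlap each other in the windows shown.

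The changes were also read against these letters. The 30 genes with both kinds of match had a median change of 0.48 and included 29 called higher, with Bub3 the remaining gene. The 5 genes with neither, Nusap1, Kif18a, Mad2l1, Nuf2 and Tacc3, were all called higher, with a median of 0.48 as well. The 6 with a CHR match alone had a median of 0.46 and included Anln. Cdc25b and Bub1 held CCAAT without CHR, and were lower and higher respectively. A match is a description of the letters and not evidence of binding.

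**Figure D3:**
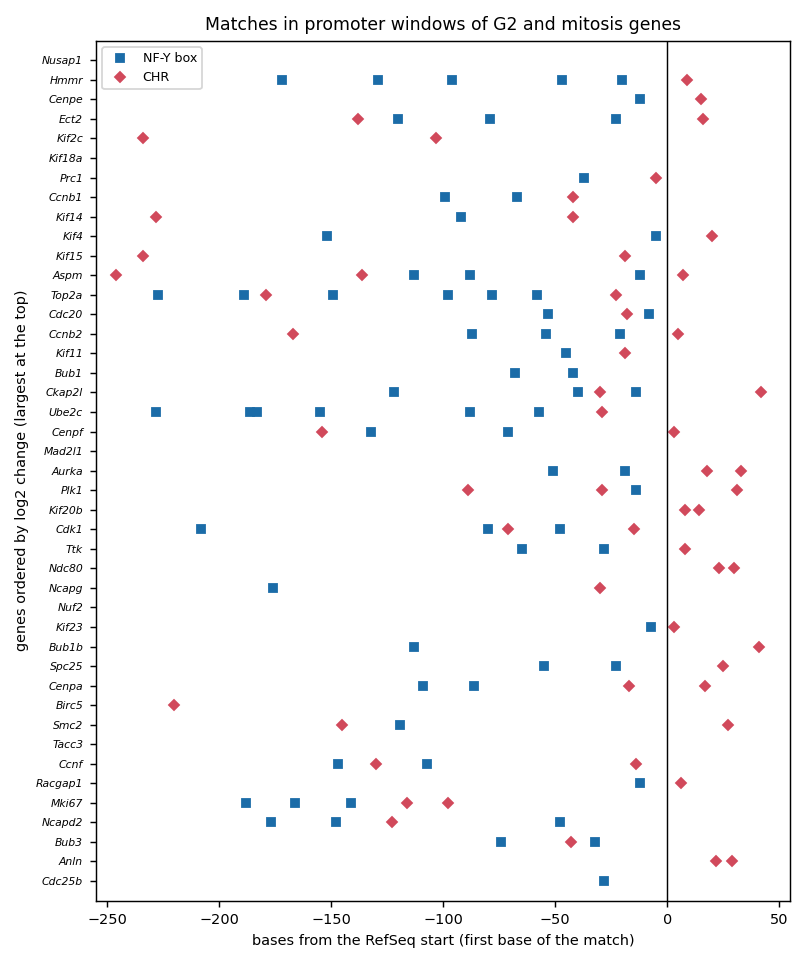
Positions of NF-Y box (CCAAT) and CHR matches in the promoter windows of 43 genes, in bases from the RefSeq start, with genes ordered by log2 change and the largest at the top (for 3 genes with a pair of windows, the first is drawn). CHR matches gather near the start and NF-Y boxes before it. Rows without either belong to genes with changes from 0.31 to 0.79.

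Among cyclins and kinases, 9 of 11 genes rose, 1 fell and 1 was not called, with a median change of 0.46. Ccnb1 (ENSMUSG00000041431, chromosome 13, 100778650 to 100786570) encodes cyclin B1, the main partner of CDK1 at mitotic entry. Its level was 65.7 and 60.5 CPM in wild type, against 97.4 and 88.9 CPM in the cKO-labelled libraries. Its groups did not overlap, and the change was 0.56 ± 0.069 (edgeR adjusted p of 1.37e-06). Ccna2 (ENSMUSG00000027715, chromosome 3, 36564865 to 36572150) encodes cyclin A2, which serves in S phase and in G2. It was measured at 151 and 143 CPM in wild type and at 213 and 193 CPM in cKO-labelled libraries, a rise of 0.47 ± 0.063 (edgeR adjusted p of 5.40e-06). Exons of Exosc9 on the opposite strand cover 12.5% of the exonic bases of Ccna2, and the library kit does not mark strand. Cdk1 (ENSMUSG00000019942, chromosome 10, 69335146 to 69352938) stood at 83.3 and 90.3 CPM against 124 and 114 CPM, a rise of 0.46 ± 0.065 (edgeR adjusted p of 1.19e-05). The kinase and its cyclins thus rose by similar factors, between 1.37-fold for Cdk1 and 1.48-fold for Ccnb1, with Ccnb2, the second B-type cyclin, at 1.42-fold.

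The other risen genes of the group were Plk1, Aurka and Aurkb, kinases of the spindle poles, centrosomes and centromeres, Ccnf, an F-box protein, and Foxm1, a transcription factor of late cell cycle genes. Plk1 and Aurka rose by 0.46 ± 0.071 and 0.47 ± 0.092, while Aurkb, Ccnf and Foxm1 each rose by 0.30. For Foxm1 the value rested in part on cKO-labelled library 2 (91.7 CPM, against 78.8 CPM in library 1 and 69.0 and 69.8 CPM in wild type). Without that library its change was 0.18 with an edgeR adjusted p of 0.0968. Ccnf was not called without wild-type library 1 (0.26, edgeR adjusted p of 0.0532).

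Of the CDC25 phosphatases, which remove inhibitory phosphates from CDKs, Cdc25b and Cdc25c belong to the 50 genes and neither was called higher. Cdc25a, which is not among the 50, rose by 0.24 ± 0.065 (edgeR adjusted p of 0.00900). Cdc25b (ENSMUSG00000027330, chromosome 2, 131186949 to 131198497) was the only member called lower. Its level was 49.7 and 51.4 CPM in wild type and 39.8 and 41.8 CPM in cKO-labelled libraries, a change of -0.31 ± 0.079 (edgeR adjusted p of 0.00534). The groups did not overlap, but DESeq2 gave -0.31 with an adjusted p of 0.0563. Spef1 lies on the opposite strand over 2.47% of its exonic bases. The whole of Spef1 had 39 and 78 counts in the wild-type libraries, against 37 and 52. Cdc25c (ENSMUSG00000044201, chromosome 18, 34732993 to 34751533) had the lowest CPM of the 50 genes. It stood at 10.4 and 10.7 CPM against 15.0 and 12.8 CPM, a change of 0.39 ± 0.15 that was not called (edgeR adjusted p of 0.0679). Without cKO-labelled library 2 it was called, at 0.50 (edgeR adjusted p of 0.0310).

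All 9 kinesins rose, with changes from 0.37 to 0.59 and a median of 0.54. Kinesins are motors that move along microtubules or take them apart. Kif11 (ENSMUSG00000012443, chromosome 19, 37376403 to 37421859) encodes EG5, which pushes the spindle poles apart. It stood at 154 and 152 CPM in wild type and at 221 and 212 CPM in cKO-labelled libraries, a change of 0.50 ± 0.059 (edgeR adjusted p of 6.55e-07). Kif15 (ENSMUSG00000036768, chromosome 9, 122951046 to 123018733), which can share the work of EG5, stood at 82.5 and 78.9 CPM against 120 and 113 CPM. Its change was 0.53 ± 0.063 (edgeR adjusted p of 8.67e-07). Kif20a (ENSMUSG00000003779, chromosome 18, 34624613 to 34633277), a motor of the spindle midzone, had the largest change of the group. Its wild-type libraries were further apart, at 59.6 and 72.6 CPM, than its cKO-labelled ones, at 104 and 95.4 CPM. The change was 0.59 ± 0.078 (edgeR adjusted p of 3.74e-06). Cdc23 covers 29.3% of its exonic bases on the opposite strand.

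The remaining kinesins were higher in both cKO-labelled libraries as well. Kif2c, which depolymerises microtubules at centromeres, rose from 35.9 ± 1.09 to 54.1 ± 3.06 CPM (mean ± SD, n = 2). Kif18a, which damps the movement of chromosomes at the spindle equator, rose from 18.9 ± 1.42 to 28.5 ± 0.402 CPM. Kif4, a chromosome-bound motor encoded on chromosome X, rose by 0.54 ± 0.073. Kif14 and Kif20b, both of the late spindle and midbody, rose by 0.56 ± 0.097 and 0.46 ± 0.068. Kif23, the motor subunit of centralspindlin, had the smallest rise of the group, 0.37 ± 0.068.

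Of the 14 centromere and checkpoint genes, 13 rose and Bub3 was not called. Cenpe (ENSMUSG00000045328, chromosome 3, 135212537 to 135273611) encodes the kinetochore motor that carries chromosomes to the equator. It stood at 68.8 and 71.8 CPM in wild type and at 112 and 106 CPM in cKO-labelled libraries, a change of 0.63 ± 0.064 (edgeR adjusted p of 8.13e-08). Cdc20 (ENSMUSG00000006398, chromosome 4, 118432901 to 118437352) encodes the activator of the anaphase-promoting complex that the checkpoint holds back. Its libraries were close within each genotype, at 76.7 and 74.8 CPM against 109 and 108 CPM, and the change was 0.51 ± 0.062 (edgeR adjusted p of 1.12e-06). Mad2l1 (ENSMUSG00000029910, chromosome 6, 66535390 to 66547220), whose product binds CDC20 when kinetochores are unattached, stood at 87.3 and 82.9 CPM against 122 and 114 CPM. Its change was 0.48 ± 0.063 (edgeR adjusted p of 4.71e-06).

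Bub3 (ENSMUSG00000066979, chromosome 7, 131560222 to 131571895), the WD40 partner of BUB1 and BUBR1, was the gene of this group that was not called. It was measured at 140.0 and 136 CPM in wild type and at 139.9 and 148 CPM in cKO-labelled libraries. The genotypes overlapped narrowly in these scaled values, with a change of 0.06 ± 0.060 (edgeR adjusted p of 0.530). Its partners Bub1 and Bub1b rose by 0.50 ± 0.071 and 0.36 ± 0.062. Whether Bub3 differs from them was not tested.

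The other risen genes of this group were Ube2c, which charges the anaphase-promoting complex with ubiquitin, the checkpoint kinase Ttk, Cenpf of the outer kinetochore and Cenpa, the histone H3 variant that marks centromeres. Ube2c rose from 60.8 ± 4.49 to 85.1 ± 6.00 CPM and Cenpf from 62.9 ± 0.690 to 87.7 ± 9.21 CPM. Cenpa and Birc5, which encodes survivin of the chromosomal passenger complex, rose less, by 0.35 ± 0.065 and 0.32 ± 0.065. The Ndc80 complex, which holds microtubules at the kinetochore, was represented by Ndc80 (0.46 ± 0.082), Nuf2 (0.41 ± 0.083) and Spc25 (0.35 ± 0.11). Spc25 was the least secure call of the group. It stood at 24.0 and 21.4 CPM against 31.1 and 26.7 CPM, with an edgeR adjusted p of 0.0244. It was not called without wild-type library 2 (0.26, edgeR adjusted p of 0.196), without cKO-labelled library 1 (0.24, edgeR adjusted p of 0.239), by DESeq2 (0.35, adjusted p of 0.155) or after removal of each library's GC trend (0.27, edgeR adjusted p of 0.0960).

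Of the 4 cytokinesis genes, 3 rose. Prc1 (ENSMUSG00000038943, chromosome 7, 80294450 to 80316259) bundles microtubules at the spindle midzone. It stood at 47.8 and 44.5 CPM in wild type and at 71.9 and 65.2 CPM in cKO-labelled libraries, a change of 0.57 ± 0.075 (edgeR adjusted p of 3.74e-06). Rccd1 covers 11.1% of its exonic bases on the opposite strand. Ect2 (ENSMUSG00000027699, chromosome 3, 27097222 to 27153878), the exchange factor that switches on RhoA at the cleavage site, stood at 32.2 and 31.4 CPM against 48.1 and 49.2 CPM. Its change was 0.61 ± 0.083 (edgeR adjusted p of 5.50e-06). Racgap1, the other subunit of centralspindlin, rose by 0.29 ± 0.063.

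Anln (ENSMUSG00000036777, chromosome 9, 22332012 to 22389188) encodes anillin, a scaffold of the contractile ring, and did not rise. Its levels were 22.4 and 21.7 CPM in wild type and 20.99 and 21.4 CPM in cKO-labelled libraries. Both cKO-labelled values lay just below both wild-type values, and the change of -0.06 ± 0.11 was not called (edgeR adjusted p of 0.794).

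All 12 genes of spindle and chromosome structure rose, and they held the largest and the smallest called rise of the 50 genes. Nusap1 (ENSMUSG00000027306, chromosome 2, 119618298 to 119651244), which bundles microtubules near chromosomes, stood at 65.1 and 66.1 CPM in wild type and at 119 and 108 CPM in cKO-labelled libraries. The change of 0.79 ± 0.066, or 1.73-fold, was the largest (edgeR adjusted p of 3.14e-09). Oip5 covers 4.24% of its exonic bases on the opposite strand and also rose, by 0.51 ± 0.11. Hmmr (ENSMUSG00000020330, chromosome 11, 40701395 to 40733422), a spindle protein that is also known as a hyaluronan receptor, stood at 47.0 and 47.8 CPM against 83.8 and 70.9 CPM. Its change was 0.71 ± 0.078 (edgeR adjusted p of 2.80e-07). Top2a (ENSMUSG00000020914, chromosome 11, 98992943 to 99024189), the topoisomerase that untangles sister chromatids, had the highest level per length. It stood at 513 and 515 CPM against 753 and 719 CPM, a change of 0.52 ± 0.056 (edgeR adjusted p of 1.80e-07).

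Mki67, which encodes the proliferation antigen Ki-67 and is present through most of the cycle, rose by 0.28 ± 0.057, from 531 ± 23.1 to 646 ± 11.8 CPM. The spindle genes Aspm, Tpx2 and Ckap2l rose by 0.52 ± 0.065, 0.51 ± 0.067 and 0.49 ± 0.075, and Tacc3 by 0.31 ± 0.062. Condensin compacts mitotic chromosomes, and its subunits spread widely. Smc4 rose by 0.47 ± 0.062, Ncapg by 0.44 ± 0.074 and Smc2 by 0.32 ± 0.059. Ncapd2 stood at 271 and 269 CPM against 306 and 309 CPM, a change of 0.19 ± 0.057 (edgeR adjusted p of 0.0188). Its groups did not overlap, but its call was lost when any single library was left out (0.18 to 0.19, edgeR adjusted p of 0.0582 to 0.117).

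Levels can be compared between genes only per length, for which the authors' deposited FPKM values (fragments scaled to exonic length and library total) were used. The wild-type mean of the 50 genes ran from 1.92 FPKM for Kif18a to 56.9 FPKM for Top2a, with a median of 12.9 FPKM beside 5.79 FPKM over all genes tested. Levels of Ccnb2 (26.3 FPKM) and Ccna2 (35.8 FPKM) exceeded that of Ccnb1 (14.9 FPKM) in wild type, and this order was the same in each library. The Ndc80 subunits Ndc80, Nuf2 and Spc25 stood close together, with Ndc80 and Nuf2 both at 6.495 FPKM and Spc25 at 7.095 FPKM in wild type, and the 3 at 8.94, 8.69 and 9.07 FPKM in cKO-labelled libraries. Spc24, their partner, was higher at 18.4 and 22.2 FPKM and rose by 0.27 ± 0.076. Of the passenger complex, Aurkb and Incenp (30.9 and 29.7 FPKM in wild type) exceeded Birc5 and Cdca8 (21.6 and 16.1 FPKM), and all rose, Incenp by 0.33 ± 0.058 and Cdca8 by 0.24 ± 0.067. In the condensin complexes, Ncaph, specific to condensin I, was at the threshold (0.19 ± 0.068, edgeR adjusted p of 0.0497). Of the subunits specific to condensin II, Ncapg2 rose by 0.25 ± 0.066, while Ncapd3 (0.04 ± 0.071) and Ncaph2 (-0.09 ± 0.058) were not called.

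**Figure D4:**
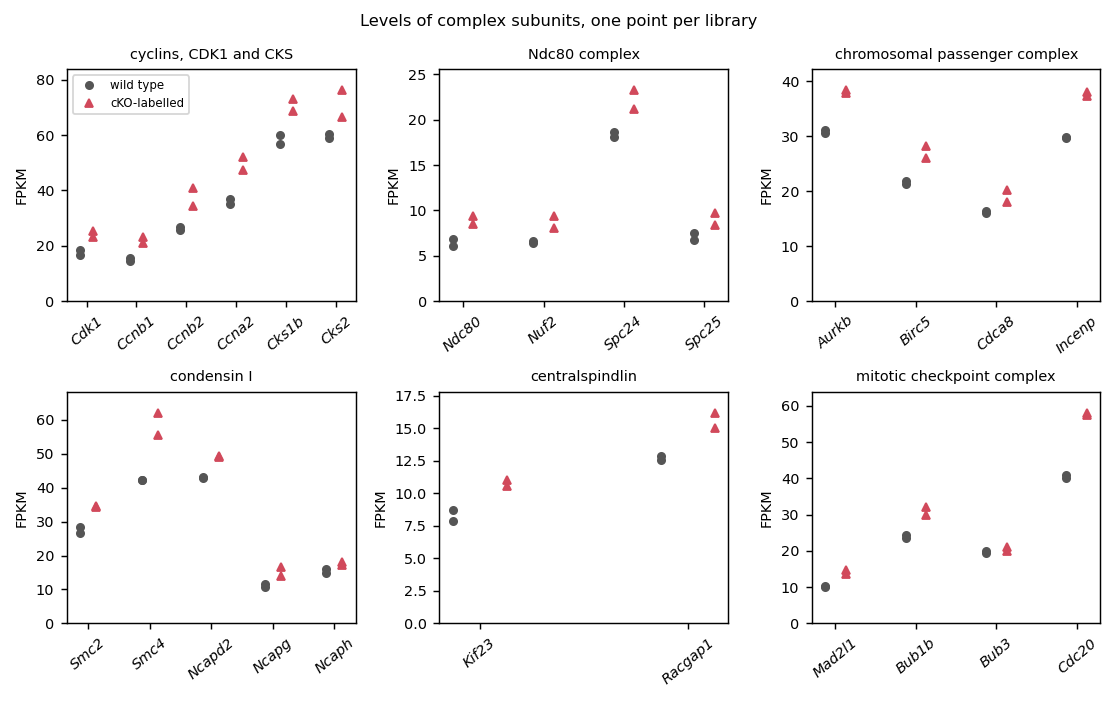
Deposited FPKM of the subunits of 6 mitotic complexes (condensin II is not drawn), with 1 point per library (circles wild type, triangles cKO-labelled) and axes from 0. The cKO-labelled points lie above the wild-type points for every subunit drawn. They are closest for Bub3, whose FPKM were 19.87 and 19.35 in wild type against 19.98 and 21.12, and whose CPM overlapped.

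Other genes of G2 and mitosis were examined as well. Of 74 further genes of this phase, 48 rose (12.2% of all genes tested did) and 26 were not called, with a median change of 0.27. The change was above 0 for 70 of them. The 2 with the smallest adjusted p were Nek2, a centrosome kinase (0.67 ± 0.076), and Cep55, which acts in the final cut between daughter cells (0.63 ± 0.073). Among those not called were Hjurp, the chaperone of CENPA (0.01), Lmnb1, a lamin (0.03), and Pkmyt1, an inhibitory kinase of CDK1 (-0.10). Of 17 genes of the anaphase-promoting complex and its regulators, 2 rose and 1 fell, with a median of 0.0087. The subunit gene Cdc27 rose by 0.33 ± 0.061 and the inhibitor gene Fbxo5 by 0.43 ± 0.082. Anapc15, a subunit needed to release the checkpoint, fell from 72.1 ± 0.363 to 43.1 ± 4.34 CPM (-0.74 ± 0.076). Of 18 regulators of late cell cycle transcription, the subunits of the DREAM and MuvB complexes, E2F and NF-Y among them, 2 rose, Mybl2 (0.50 ± 0.061) and E2f8 (0.37 ± 0.078). The other 16 were not called, and the median was 0.08.

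Genes of the earlier cycle had calls in both directions, at shares read against the 12.2% higher and 9.54% lower over all genes tested. Of 42 DNA replication genes, 8 rose and 4 fell, with a median of 0.04. Rrm2, a subunit of ribonucleotide reductase, rose by 0.48 ± 0.059. Pold1, of DNA polymerase delta, fell by 0.40 on the log2 scale, and the licensing genes Cdt1, Mcm2 and Mcm3 had changes of -0.36, -0.17 and -0.17. Of 15 tested genes of the G1 and S cyclins, their kinases and inhibitors, 2 rose (Cdkn2b and Ccne2) and 2 fell (Cdk6 and Rb1), with a median of 0.03. Cdkn2b, an inhibitor of CDK4 and CDK6, rose by 1.62 ± 0.26 from a low level, 1.86 and 2.59 CPM against 6.77 and 6.99 CPM. Ccne2, a cyclin of S phase entry, rose by 0.34 ± 0.096. The difference between these lists and the 50 genes is described by counts and medians and was not tested.

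**Figure D5:**
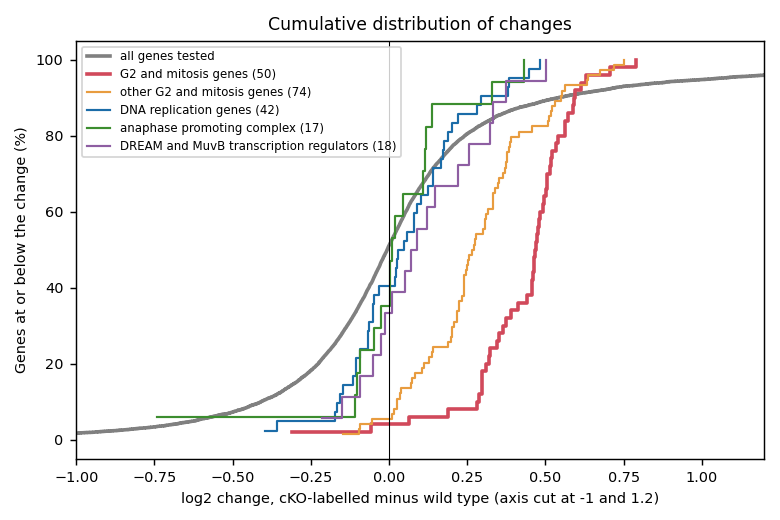
Cumulative share of genes at or below each log2 change, cKO-labelled minus wild type, for the 50 genes, 4 other lists and all 14180 genes tested. The curve of the 50 genes lies furthest to the right over most of its height, that of the other G2 and mitosis genes next, and those of DNA replication, the anaphase-promoting complex and DREAM regulators stay near the curve of all genes.

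Markers of other cells were measured in the same libraries. Their calls are read against the 12.2% of all genes tested that were called higher and the 9.54% called lower. Summed over lists, CPM of library totals for 8 dendritic cell markers were 59.8 and 59.1 in wild type. They were 114 and 120 in the cKO-labelled libraries, with 4 of 5 tested markers called higher and Cd209a at 0 in all libraries. Most of that sum was Zbtb46, at a mean of 40.4 against 62.97 TMM-scaled CPM, and Flt3, at 13.2 against 40.2. Batf3 and Itgax were called from low levels, means of 1.89 against 6.43 and 0.457 against 2.46 TMM-scaled CPM. Xcr1 was not called (0.42 ± 0.26). Macrophage markers (9) stood at 129 and 124 against 47.6 and 56.5. Most of that sum was Adgre1, at 111 and 108 against 30.3 and 40.3 TMM-scaled CPM, which was called lower, and the other 5 tested were not called. Erythroid markers (9) stood at 3.69 and 4.22 against 7.61 and 6.59, with 2 of 5 tested called higher. T cell markers (10) stood at 23.2 to 24.9 against 21.3 to 23.7 with the 4 tested not called, NK cell markers (6) at 1.44 to 1.68 against 5.04 to 5.39 with 1 of 2 called higher, and neutrophil markers (8) at 1.02 to 1.27 against 2.72 to 3.32 with 1 of 2 called higher and Ly6g at 0 in all libraries. Megakaryocyte markers (5) stood at 1.04 to 1.68 against 0.889 to 1.89 with Gp1bb and Ppbp at 0 in all libraries. Plasma cell markers (7) stood at 726 to 744 against 841 to 868, with 4 of 6 tested called higher. Most of that sum was Irf4, at 438 and 461 against 457 and 467 TMM-scaled CPM, which was not called. Sdc1, also not called, was lower in the cKO-labelled libraries, at 5.80 and 6.51 against 4.66 and 3.84 TMM-scaled CPM. The 4 called higher were Jchain, Prdm1, Mzb1 and Xbp1. Jchain had a mean of 22.7 against 73.4 TMM-scaled CPM, and Prdm1 had 12.6 against 26.9. The means of Mzb1 were 122 against 145, and those of Xbp1 were 123 against 142. The 7 B cell markers were at 3510 to 3540 in wild type and at 3130 to 3210 in cKO-labelled libraries, with Cd22 (-0.36 ± 0.057), Cd79a, Cd79b and Pax5 called lower and Blk called higher (0.26 ± 0.058). The part of these shifts in the rise of the mitotic genes was not tested.

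Base composition was also examined. The 50 genes had a median GC content of 46.1% (longest transcript), beside 49.4% over all genes tested, and a median exonic length of 5454.5 bases beside 3873 bases. Across the 50 genes, which share libraries and are not independent, change and GC content had a Pearson r of -0.36 and a Spearman rho of -0.31. Change and wild-type FPKM (log2) had a Pearson r of -0.10 and a Spearman rho of -0.22. After removal of each library's GC trend, 45 of the 50 genes were still called higher and 1 lower, with a median of 0.40. The genes lie on 16 chromosomes, 10 of them on chromosome 2. Exons of 14 of the 50 genes overlap a gene on the opposite strand, and of the 36 others 34 were called higher.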

How the data were processed

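The RNeasy kit, an NEB module for poly(A) mRNA and the NEBNext Ultra RNA kit were used, per the labels' protocols. The last of these does not mark strand. Tools named in the submitters' processing notes are HTSeq 0.6.1, HISAT2 2.0.1, cutadapt 1.9.1 and bcl2fastq 2.17.1.14, with GRCm38 as the build. Their roles and settings, and the annotation used, are not stated there. The authors deposited whole-number counts per gene and, beside them, FPKM values. Each deposited FPKM value was recomputed from count, exonic length and library total to within 0.0050.

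Genes were filtered with filterByExpr at a minimum count of 10 and a minimum total of 15. The 14180 genes left were fitted in edgeR 4.0.16 (R 4.3.3) with TMM factors and the quasi-likelihood test of genotype, with Benjamini-Hochberg adjustment and calls under 0.05. The SE is the size of the change over the root of the F statistic. The fit was also run on simulated data, the outcome of which is not reported here and is not used as support. CPM values use TMM-scaled library sizes, except marker sums, which use library totals. GENCODE M21 (GRCm38, 99.53% of rows matched) supplied overlaps, gene types and GC content. Promoter windows are from RefSeq (GRCm38.p6).

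The members, lists, roles and alternatives were chosen with earlier results of these data known. Of each role group the 3 genes with the smallest adjusted p (2 for cytokinesis), every gene not called or lower, and the largest and smallest called changes are given in full. Of the other cell cycle lists the 2 genes with the smallest adjusted p and up to 5 called against the majority are named. That rule was not followed for T cell, NK cell, macrophage, neutrophil, erythroid and megakaryocyte markers. Cdc25a, Adgre1 and the non-called genes Hjurp, Lmnb1 and Pkmyt1 were named after their values were seen, as were subunits of listed complexes. Markers outside the rule, such as Batf3, Itgax, Xcr1, Irf4, Sdc1, Mzb1 and Xbp1, were also named with their values known. Some planned marker genes are not reported here and were left out of the marker sums.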

Additional observations from a re-analysis of the deposited data

How the results depend on the processing

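Of 650 refits of single genes (50 genes under 13 alternatives), 637 kept their direction and side of the threshold, 12 lost the call, 1 gained it and none changed sign. Under every alternative of the fit 42 genes were called higher. DESeq2 1.42.0 called fewer genes, 1118 higher and 738 lower of 13846 with an adjusted p (edgeR 1727 and 1353), and 45 of the 50 genes higher. It called 0 of the 50 lower (1 at an unadjusted p under 0.05). Without genes that overlap the opposite strand, edgeR called 0 of 36 lower (0 at an unadjusted p under 0.05). Cdc25b, the only gene called lower, is among those left out, so this count does not show whether its fall depends on the overlap. Leaving out each library in turn gave 44 to 45 genes higher, 1 lower, and a median of 0.40 to 0.52. Over all genes it gave 1293 to 1469 higher and 984 to 1252 lower. Other factors (RLE, upper quartile, library totals), no filter and no ribosomal RNA rows left 46 higher and 1 lower. Equal replicate numbers are not stated to share an animal or day, and their deviations correlated at -0.029. With the replicate number as a block, 46 genes were higher, 1 lower, and the median was 0.47, while over all genes 1904 were higher and 1594 lower. With the block and the GC trend removed, 45 were higher and 1 lower, with a median of 0.40. Among the 50 genes the SE was largest, 0.15, for Cdc25c, which had the fewest counts (180 to 270 per library).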
